A study of Rattus norvegicus with 9 samples.

Results

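Cd36, Ephx2, Gstm1, Acsm3, Ogn, Endog and Zbtb16 are genes that work on the spontaneously hypertensive rat (SHR) has put forward as candidates for its blood pressure, heart or metabolic traits. They were taken by gene name from the arrays, which gave 7 genes of 34911 gene names and 13 probes of 45598. All rats were female SHR that had both ovaries removed at 4 weeks of age and were killed at 9 weeks. After 1 week of recovery, OV+E2 rats received 2 µg of estradiol a day in polyethylene glycol from an implanted pump for about 4 weeks (5 rats), and OV rats received polyethylene glycol alone (4 rats). The tissue was the amygdala of both sides, with 1 rat on each array. No rat with ovaries and no normotensive strain was analysed here, so the comparison is of estradiol within the hypertensive strain. The estradiol comparison asks which transcripts of this region differ with the hormone.

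Estradiol showed no difference in these genes that passed adjustment over all probes. The lowest p among them belonged to a Zbtb16 probe, at which OV+E2 rats were higher by 0.34 on the log2 scale. The other Zbtb16 probes had differences of +0.23 and −0.28. Gstm1 and Ephx2 were also higher in OV+E2 rats on average, but without 1 OV rat those differences were close to 0 for Gstm1 and below 0 for Ephx2. Cd36, Ogn and Endog had differences close to 0.

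The SHR is an inbred rat that becomes hypertensive with age, and crosses with normotensive rats have tied stretches of its genome to blood pressure, heart mass and lipid handling. Cd36 is a membrane protein that takes up long-chain fatty acids, and a defective Cd36 gene has been described in colonies of the strain. Ephx2 encodes soluble epoxide hydrolase, which removes the vessel-dilating epoxides of arachidonic acid. Gstm1 joins glutathione to reactive molecules, Acsm3 activates medium-chain fatty acids in mitochondria, Ogn is a small proteoglycan of connective tissue, Endog is a nuclease of the mitochondrial intermembrane space, and Zbtb16 is a zinc finger repressor of transcription that glucocorticoids induce.

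The probes decide which part of each transcript was read, so those behind the results are shown. Each has 60 bases, is given on the transcript strand from the array design, and lies in rat build rn4. The files do not state whether each lies in a coding or an untranslated stretch. The Gstm1 probes start at bases 612 and 643 of the transcript and overlap by 29 bases, printed in capitals, so they are not separate readings of the gene.
Gstm1 from base 612, minus strand, chr2:203575827-203575886: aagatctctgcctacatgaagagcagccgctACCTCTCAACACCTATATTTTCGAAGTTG
Gstm1 from base 643, minus strand, chr2:203575796-203575855: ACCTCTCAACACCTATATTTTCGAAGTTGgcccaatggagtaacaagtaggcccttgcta

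Zbtb16 was read at 3 places that share no more than 8 bases in a row. The probes at bases 4390 and 7403 lie on a long predicted transcript, and the probe at base 1788 on the curated one. They are shown because their estimates differed in sign, and of the first pair only the opening 30 bases are printed.
Zbtb16 from base 4390, minus strand, chr8:51929574-51929633: agagagtagtggctgtgttttgaccttagg
Zbtb16 from base 7403, minus strand, chr8:51926561-51926620: cctgccttcgttctgtgtagattgacgcgt
Zbtb16 from base 1788, minus strand, chr8:51934505-51934564: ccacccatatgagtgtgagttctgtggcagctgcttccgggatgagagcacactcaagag

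Ephx2, Acsm3 and Endog had 1 probe each, so these letters are all that stands for the gene. The Ephx2 probe spans 2484 bases of the genome and so crosses at least 1 intron.
Ephx2 from base 887, minus strand, chr15:45535737-45538220: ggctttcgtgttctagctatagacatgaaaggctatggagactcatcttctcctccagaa
Acsm3 from base 1650, plus strand, chr1:178074915-178074974: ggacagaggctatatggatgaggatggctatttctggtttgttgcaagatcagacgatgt
Endog from base 627, plus strand, chr3:9187223-9187282: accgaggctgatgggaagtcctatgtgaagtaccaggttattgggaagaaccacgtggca

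Ogn had probes at bases 999 and 2404 of 1 transcript, which share no more than 8 bases in a row. Cd36 had 1 probe at base 2403 and 2 near the start of its transcripts, which share 21 bases, printed in capitals below. Of the probes at bases 2404 and 2403 the opening 30 bases are shown.
Ogn from base 999, minus strand, chr17:20988620-20988679: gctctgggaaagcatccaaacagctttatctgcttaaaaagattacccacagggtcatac
Ogn from base 2404, minus strand, chr17:20987215-20987274: aattatagtaactttatctcactgtatcat
Cd36 from base 2403, plus strand, chr4:13525426-13525485: gctcagccgcaactaatgtaacttcagaga
Cd36, shared by both probes at the transcript start, plus strand, within chr4:13465101-13471898: GTAGCTTACAAATGATTCGAA

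Levels are log2 of the processed signal minus log2 of the 75th percentile of its array, so a level of 0 is the 75th percentile itself, and levels are compared between rats for a probe and never between probes. On the array side, 8 of the 9 were alike, with a 75th percentile of signal of 556.8 to 737.6 and 29052 to 31395 probes well above background, while OV replicate 3 had 129.7 and 24225. The mean correlation of an array with the others was 0.981 to 0.984 for those arrays and 0.932 for OV replicate 3. The authors' deposited table also differs from the scanner file there: the SD of their log2 ratio over probes was 1.00 for OV replicate 3 and 0.0033 to 0.031 for the rest. The difference of each tested candidate probe is therefore also given without this rat and with the authors' values, as are the counts of the gene lists. Markers written for neurons of the amygdala were measured for 14 of 16 genes, and Rspo2 of that list was not well above background on enough arrays. In this bulk tissue, fewer cells of a type and less RNA per cell cannot be told apart.

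Of the 13 probes, 11 were well above background on at least 4 of the 9 arrays and were tested. With limma and Benjamini-Hochberg adjustment, 0 of these 11 and 0 of all 30215 probes tested (0%) passed an adjusted p of 0.05. An unadjusted p under 0.05 was reached by 1 of the 11, which was higher in OV+E2 rats, against 3.2% of all probes higher and 7.17% lower. Without OV replicate 3 it was 2 of 11, both higher, against 5.84% of all probes higher and 8.27% lower. With the authors' values it was again 2 of 11, both higher, against 8.47% higher and 10.4% lower, and without OV replicate 3 in those values 2 of 11 against 5.88% and 8.25%. With slide as a block it was 2 of 11, both higher, against 2.04% higher and 5.59% lower. The 1 probe was Zbtb16 at base 4390, and in each count of 2 the probes were Zbtb16 at bases 4390 and 7403. These counts thus stand for 1 gene, read by probes whose levels went together (Pearson r of 0.906 without OV replicate 3). OV+E2 and OV rats overlapped at every one of the 11 probes, and over all probes the groups did not overlap at 2.88%, with OV+E2 above, and 4.01%, with OV+E2 below.

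**Figure D1:**
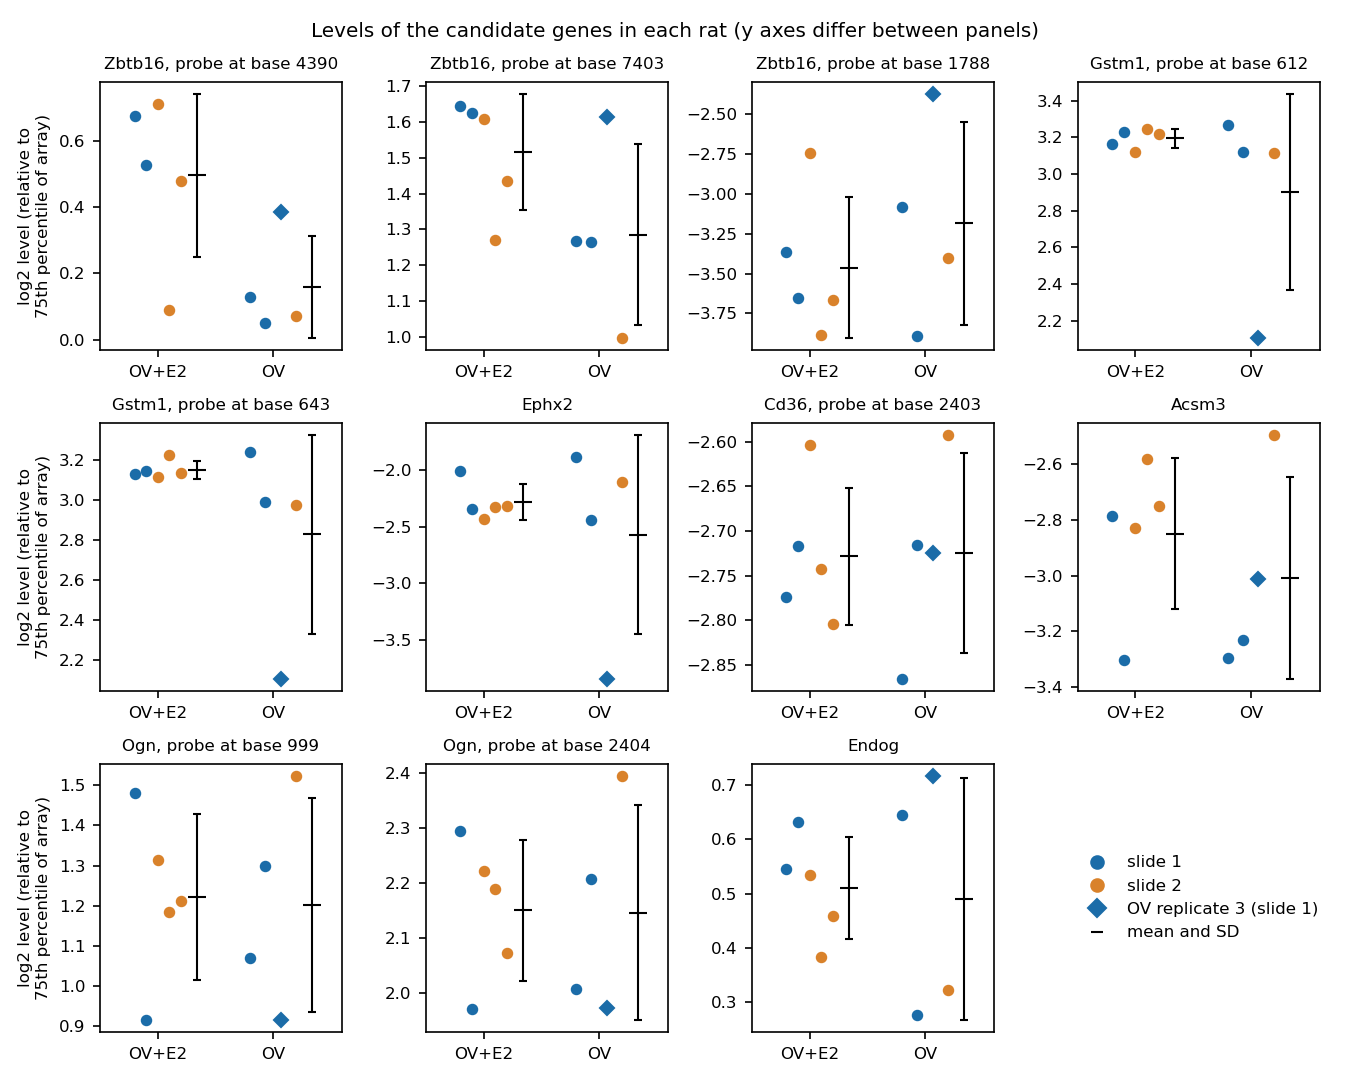
Log2 level of each tested probe in each rat, relative to the 75th percentile of its array, with OV+E2 left of OV. Points are rats coloured by slide, the diamond is OV replicate 3, bars are means with SD (5 OV+E2 and 4 OV rats), and the groups overlap in every panel.

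Zbtb16, which represses transcription through its BTB domain and is known from limb and germ cell development, gave the largest difference relative to its error. At base 4390 the level was 0.67, 0.53, 0.71, 0.09 and 0.48 in OV+E2 replicates 1 to 5, and 0.13, 0.05, 0.39 and 0.07 in OV replicates 1, 2, 3 and 5. All OV+E2 rats but replicate 4 were above all OV rats, and that rat lay among the OV rats. The means were 0.50 ± 0.25 in OV+E2 rats (SD, n = 5) and 0.16 ± 0.15 in OV rats (SD, n = 4). The difference was +0.34 ± 0.14 (SE), a 1.26-fold higher level, with an unadjusted p of 0.0437 and an adjusted p of 0.470 in limma.

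At base 7403 of Zbtb16 the level was 1.64, 1.63, 1.61, 1.27 and 1.43 in OV+E2 replicates 1 to 5, and 1.27, 1.27, 1.61 and 1.00 in OV replicates 1, 2, 3 and 5. As at base 4390, OV+E2 replicate 4 lay with the OV rats and OV replicate 3 was the highest OV rat, here level with the top OV+E2 rats. The difference was +0.23 ± 0.14 (SE), with an adjusted p of 0.519. Levels at both places had a Pearson r of 0.873 over the 9 arrays and 0.906 without OV replicate 3, as a description of rats that share group and slide.

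OV replicate 3 was the OV rat with the highest level at both places. Without it the differences were +0.41 at base 4390 and +0.34 at base 7403, with unadjusted p of 0.0167 and 0.0162 and adjusted p of 0.243 and 0.241. A block for slide gave +0.39 and +0.33, slide 1 alone +0.41 and +0.25, and slide 2 alone +0.36 and +0.44. The sign was thus the same within both slides, of which slide 2 holds 1 OV rat. The authors' values gave +0.47 and +0.45, with adjusted p of 0.0972 and 0.110. In their table OV replicate 3 is the lowest of the OV rats at both places, unlike in its scanner file.

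The probe at base 1788 of Zbtb16 did not follow them. Its level was −3.37, −3.65, −2.75, −3.89 and −3.67 in OV+E2 replicates 1 to 5, and −3.08, −3.89, −2.37 and −3.40 in OV replicates 1, 2, 3 and 5. Here OV replicate 3 was the highest of all rats, and the groups covered nearly the same range. The difference was −0.28 ± 0.32 (SE), with a 95% interval of −1.01 to +0.45 and an adjusted p of 0.653. Without OV replicate 3 it was −0.0067, and with the authors' values −0.025. Its Pearson r with the other places was 0.369 and 0.397 over 9 arrays. An interval this wide includes the differences seen at bases 4390 and 7403, so a difference between places of the transcript is not shown.

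**Figure D2:**
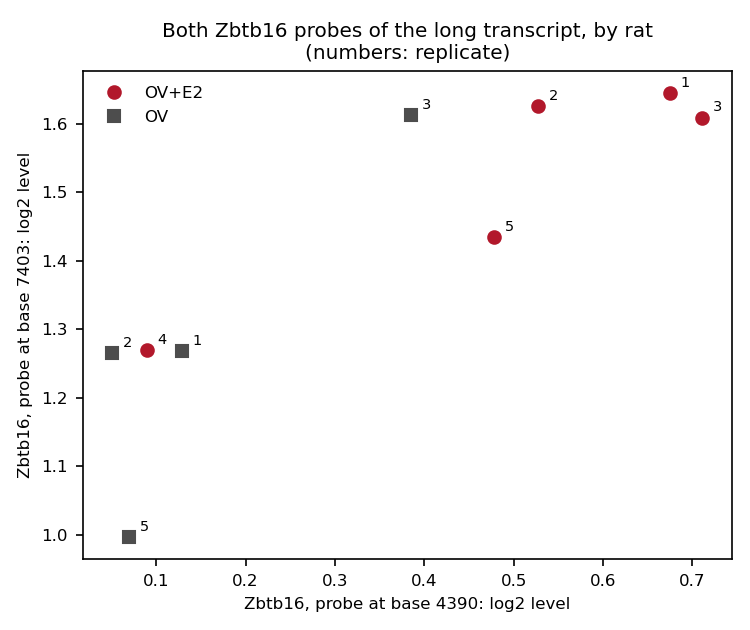
Zbtb16 level at base 4390 (x axis) against base 7403 (y axis), both log2 relative to the 75th percentile of the array, with 1 point per rat and its replicate number. OV+E2 replicate 4 lies among the OV rats, and OV replicate 3 lies at 0.39 and 1.61, with the OV+E2 rats at base 7403.

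Zbtb16 is induced by glucocorticoids in many tissues, and a list of 20 genes written for that induction was compared beside it. The list also holds the receptors Nr3c1 and Nr3c2 and the enzymes Hsd11b1 and Hsd11b2, so it is not purely one of induced genes. Of 18 tested, 4 were higher in OV+E2 rats at an unadjusted p under 0.05 and 0 were lower, against 3.72% and 5.8% of 15000 named genes, and 0 of 15000 passed adjustment (0%). These shares are the background for each list below. The median difference of the glucocorticoid list was +0.16, against +0.027 over all named genes. Of its 18 tested genes 16 were above 0, and of the 15000 named genes 8176 were. Sult1a1, a sulfotransferase of phenols and steroids, had a level of 2.73 ± 0.14 in OV+E2 rats (SD, n = 5) and 2.08 ± 0.13 in OV rats (SD, n = 4). Sgk1, a kinase that regulates ion transport, had 1.35 ± 0.22 in OV+E2 rats and 0.44 ± 0.51 in OV rats. Fkbp5, a co-chaperone that restrains the glucocorticoid receptor, had 2.21 ± 0.09 in OV+E2 rats and 1.92 ± 0.17 in OV rats. Their differences were +0.65, +0.91 and +0.29, with adjusted p of 0.246, 0.264 and 0.391. Without OV replicate 3 the list had 6 higher and 0 lower with a median of +0.17, against 6.89% and 6.75% of named genes. With the authors' values it had 5 higher and 1 lower with a median of +0.12, against 10.3% and 8.29%, and Sgk1 was at +0.32. The members of the list were picked for what is known of them and include Sult1a1, which was already known to differ in these arrays.

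Other BTB zinc finger genes, the family of Zbtb16, had 0 higher and 0 lower of 8 tested, with a median of −0.050. Leaving out OV replicate 3 gave 1 higher and 0 lower, and with the authors' values 2 higher and 0 lower, with medians of +0.033 and +0.051. The lowest p among them was that of Zbtb20, a repressor of transcription in the developing brain, at −0.57 with an adjusted p of 0.503.

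Gstm1, a cytosolic transferase found in glia, was higher in OV+E2 rats on average at both overlapping probes. At base 612 the level was 3.16, 3.23, 3.12, 3.25 and 3.22 in OV+E2 replicates 1 to 5, and 3.27, 3.12, 2.11 and 3.12 in OV replicates 1, 2, 3 and 5. At base 643 it was 3.13, 3.14, 3.11, 3.22 and 3.13 in OV+E2 rats, and 3.24, 2.99, 2.10 and 2.97 in OV rats. OV replicate 3 stood about 1 log2 unit below every other rat at base 612, and OV replicate 1 was the highest of all at both places. The differences were +0.29 ± 0.22 and +0.32 ± 0.21 (SE), with adjusted p of 0.538 and 0.522. Without OV replicate 3 they were +0.027 and +0.080, and with the authors' values +0.046 and +0.090.

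Of 18 other glutathione S-transferases tested, 1 was higher and 0 were lower at an unadjusted p under 0.05, with a median of +0.12. Leaving out OV replicate 3 gave 2 higher and 1 lower with a median of −0.0053, and with the authors' values 2 higher and 0 lower with a median of +0.025. The one gene was Gsto2, an omega-class transferase that reduces dehydroascorbate, at +0.93 with an adjusted p of 0.474. Genes of glutathione synthesis and other Nrf2 targets, which respond to oxidants, had 0 of 12 in either direction, also without OV replicate 3 and with the authors' values.

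Ephx2 was read by 1 probe across a splice junction. Its level was −2.01, −2.34, −2.43, −2.32 and −2.32 in OV+E2 replicates 1 to 5, and −1.89, −2.44, −3.84 and −2.10 in OV replicates 1, 2, 3 and 5. The value of OV replicate 3 was not well above background, and the other OV rats straddled the OV+E2 rats. The difference was +0.28 ± 0.35 (SE) with an adjusted p of 0.674. It was −0.14 both without OV replicate 3 and with the authors' values, +0.55 within slide 1 and −0.25 within slide 2. No direction was settled for Ephx2.

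Genes that make or break down arachidonate epoxides and related lipids had 1 higher and 1 lower of 18 tested, with a median of −0.044. With OV replicate 3 left out there were 2 higher and 2 lower, and with the authors' values 2 higher and 3 lower. Cyp4a2, a fatty acid hydroxylase that forms the vessel-constricting 20-HETE, had a level of −4.96 ± 0.42 in OV+E2 rats (SD, n = 5) and −3.10 ± 1.14 in OV rats (SD, n = 4). Its difference was −1.86 with an adjusted p of 0.265, −1.31 without OV replicate 3 and −0.95 with the authors' values. Cyp4a2 has the near-identical neighbour Cyp4a3, whose RNA the probe may also bind. The OV+E2 mean of Cyp4a2 is dim, so the size of its difference is uncertain. A level alone does not show whether a probe was detected. A Cd36 probe near the transcript start was well above background at −5.27 in OV+E2 replicate 5. It was not at −5.41 in OV replicate 2, and the Ephx2 probe was not at −3.84 in OV replicate 3. Cyp4f4, of the same enzyme family as Cyp4a2, was at +0.19 with an adjusted p of 0.455.

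Cd36 was measured at base 2403 by 10 spots on each array, whose coefficient of variation was 3.85% to 18.4%. The level was −2.77, −2.72, −2.60, −2.74 and −2.80 in OV+E2 replicates 1 to 5, and −2.87, −2.72, −2.72 and −2.59 in OV replicates 1, 2, 3 and 5. All 9 rats lay within 0.3 log2 units, OV replicate 3 included. The difference was −0.0038 ± 0.090 (SE), with a 95% interval of −0.21 to +0.20 and an adjusted p of 0.984. The difference was −0.0038 without OV replicate 3, and with the authors' values −0.031.

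The other 2 Cd36 probes, at base 8 of the same transcript and at base 107 of another, were not tested. The one at base 107 was well above background on 0 of 9 arrays, and the one at base 8 on 1 of 9, that of OV+E2 replicate 5. Cd36 was thus detected on every array by the probe toward the 3′ end, and on at most 1 array by those at the start of the transcripts. Which start sites are used in these rats was not tested.

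Fatty acid uptake and oxidation genes other than Cd36 had 0 higher and 0 lower of 25 tested, with a median of +0.11. With OV replicate 3 left out there were 4 higher and 1 lower with a median of +0.027, and with the authors' values 3 higher and 1 lower with a median of +0.034. The lowest p was that of Acsl3, a long-chain acyl-CoA synthetase of lipid droplets, at +0.36 with an adjusted p of 0.503. Class B scavenger receptors and thrombospondins, which are relatives and ligands of Cd36, had 0 of 5 in either direction, with 1 lower without OV replicate 3 and 1 higher with the authors' values.

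Acsm3 was first known as the SA gene, for its high level in SHR kidney. Its level was −2.79, −3.30, −2.83, −2.58 and −2.75 in OV+E2 replicates 1 to 5, and −3.29, −3.23, −3.01 and −2.49 in OV replicates 1, 2, 3 and 5. All rats of slide 2 lay above −2.9, and of slide 1 only OV+E2 replicate 1 did. The difference was +0.16 ± 0.20 (SE) with an adjusted p of 0.675. A block for slide gave −0.0035, and the difference was +0.13 within slide 1 and −0.22 within slide 2. It was +0.16 without OV replicate 3, and with the authors' values +0.13. Slide and scan are the same split here, and the slides held 2 and 3 of the OV+E2 rats. Related acyl-CoA synthetases had 1 higher of 4 tested and 0 lower, the mitochondrial acetyl-CoA synthetase Acss1 at +0.19 with an adjusted p of 0.472, and the counts were also 1 and 0 without OV replicate 3 and with the authors' values. The median difference of these 4 synthetases was +0.16, and +0.048 without OV replicate 3 and +0.047 with the authors' values. Acsm1, Acsm2 and Acsm4 were not well above background on enough arrays.

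Ogn, also called osteoglycin or mimecan, is a matrix protein of bone, vessels and meninges that has been tied to heart mass in rats. At base 2404 its level was 2.29, 1.97, 2.22, 2.19 and 2.07 in OV+E2 replicates 1 to 5, and 2.01, 2.21, 1.97 and 2.40 in OV replicates 1, 2, 3 and 5. At base 999 it was 1.48, 0.92, 1.31, 1.18 and 1.21 in OV+E2 rats, and 1.07, 1.30, 0.92 and 1.52 in OV rats. Both places ranked the rats alike, with OV replicate 5 highest and OV+E2 replicate 2 lowest, and their Pearson r was 0.958 over 9 arrays. The differences were +0.0041 ± 0.12 and +0.020 ± 0.16 (SE), with adjusted p of 0.987 and 0.953. They were −0.054 and −0.076 without OV replicate 3, and with the authors' values −0.027 and −0.045. Within slide 1 they were +0.070 and +0.10, and within slide 2 −0.23 and −0.29.

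Other small leucine-rich proteoglycans, which bind collagen fibrils, had 0 higher and 1 lower of 10 tested, with a median of −0.075. With OV replicate 3 left out they had 1 higher and 4 lower, and with the authors' values 2 higher and 0 lower of 9, with medians of −0.099 and −0.0066, so the list's counts turned on that rat and on the source of the values. The lower one was Fmod, or fibromodulin, at −0.32 with an adjusted p of 0.454. Omd, a relative that often lies beside Ogn in genomes, was at +0.28 with an adjusted p of 0.503. Fibroblast and meningeal markers had 3 of 14 lower, 5 without OV replicate 3 and 3 with the authors' values, led by the collagen gene Col1a1 at −0.62, and their summed scaled signal was 46.9 to 49.5 in OV+E2 rats and 48.5 to 70.3 in OV rats, with the top value in OV replicate 3. Their part in the Ogn levels was not tested.

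Endog cleaves DNA and has been linked to heart muscle mass and mitochondrial function in SHR crosses. Its level was 0.55, 0.63, 0.53, 0.38 and 0.46 in OV+E2 replicates 1 to 5, and 0.64, 0.28, 0.72 and 0.32 in OV replicates 1, 2, 3 and 5. The OV+E2 rats all lay inside the range of the OV rats. The difference was +0.021 ± 0.12 (SE), with a 95% interval of −0.25 to +0.29 and an adjusted p of 0.936. It was +0.097 without OV replicate 3, and with the authors' values +0.076. Other intermembrane apoptosis factors had 0 of 13 in either direction, with 1 higher without OV replicate 3 and 2 higher with the authors' values. Genes that maintain mitochondrial DNA had 1 higher and 1 lower of 12, which were Tfb2m, a mitochondrial transcription factor, at +0.38 and Ppargc1a, a coactivator of mitochondrial biogenesis, at −0.33, with adjusted p of 0.316 and 0.438. That list had 1 higher and 0 lower without OV replicate 3, and with the authors' values 2 higher and 1 lower.

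**Figure D3:**
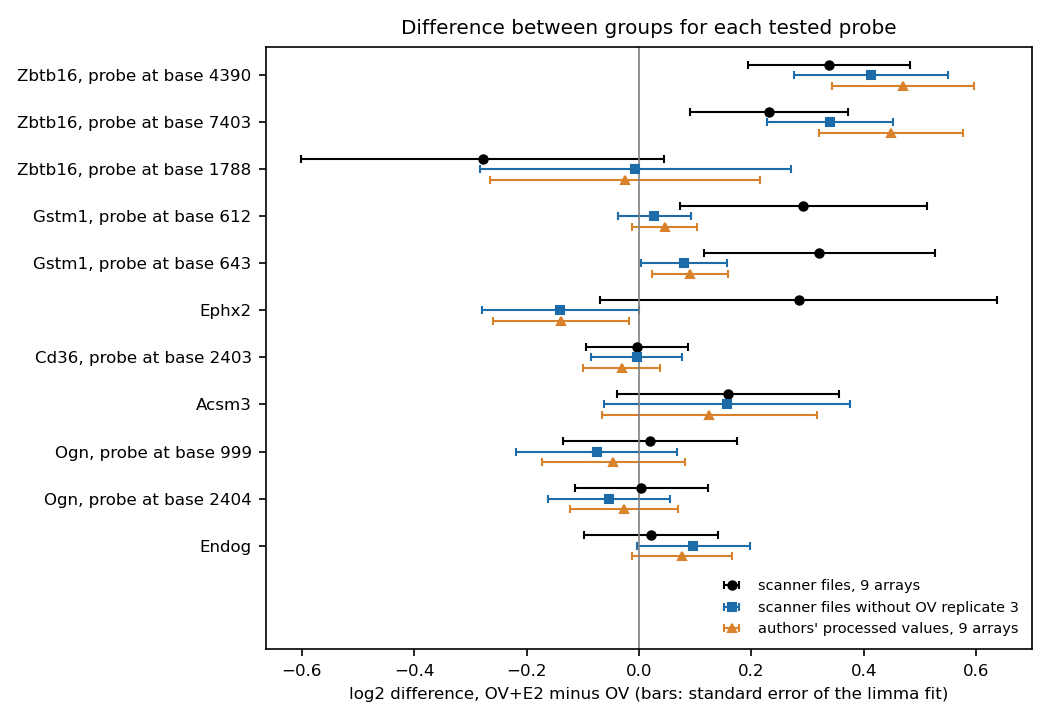
Log2 difference, OV+E2 minus OV, of each tested probe with the standard error of the limma fit, from the scanner files with all 9 arrays, without OV replicate 3, and from the authors' values. Both Gstm1 probes and Ephx2 move toward or past 0 without OV replicate 3, and Zbtb16 at bases 4390 and 7403 moves away from 0, to +0.41 and +0.34.

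**Figure D4:**
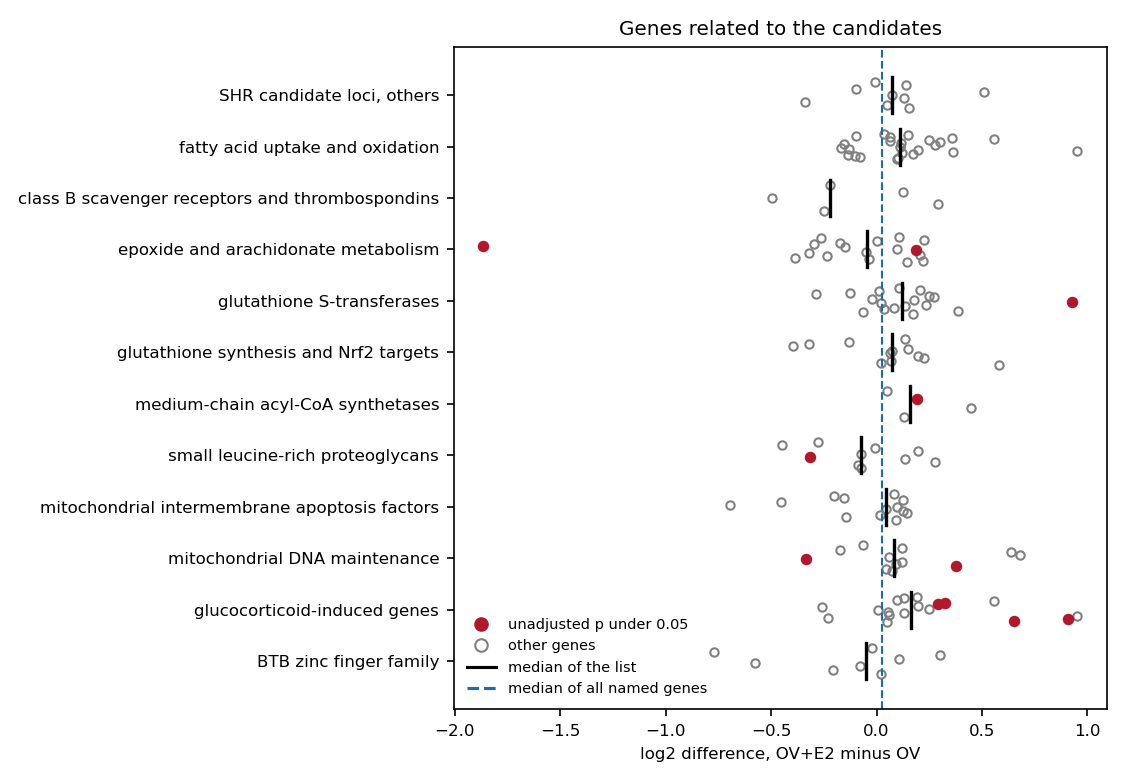
Log2 difference, OV+E2 minus OV, of each tested gene in 12 lists related to the candidates, with filled points for an unadjusted p under 0.05. Black bars are list medians and the dashed line is the median of all named genes, at +0.027. The list written for glucocorticoid induction, which includes Sult1a1, already known to differ in these arrays, was at +0.16. The medium-chain acyl-CoA synthetases, with 4 genes tested, were also at +0.16.

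Other loci named for the SHR outside these 7 genes had 0 higher and 0 lower of 9 tested, with a median of +0.071. Both counts were also 0 without OV replicate 3 and with the authors' values, with medians of −0.0054 and +0.024. Srebf1, a regulator of lipid synthesis, had the lowest p among them, at −0.34 with an adjusted p of 0.481.

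Markers of other cells in the dissected tissue also differed between the groups in part of their lists, at an unadjusted p under 0.05 and against 5.8% of all named genes lower and 3.72% higher. Blood markers had 5 of 7 lower in OV+E2 rats and 6 without OV replicate 3, but 0 with the authors' values, where their median was −0.13. Their summed scaled signal was 100.1 to 140.2 in OV+E2 rats and 150.4 to 161.1 in OV rats. Microglia and macrophage markers had 4 of 11 lower, 3 without OV replicate 3 and 5 with the authors' values, which also gave 1 higher. Endothelial markers had 3 of 12 lower under each of the 3. Oligodendrocyte markers had 1 of 7 lower under each. All 7 had differences below 0, with a median of −0.34, −0.18 without OV replicate 3 and −0.20 with the authors' values. Pericyte markers had 1 of 8 lower and 0 both without that rat and with the authors' values. Choroid plexus and ependyma markers had 0 of 8 under each, and their sum ran over 256.1 to 483.3 in OV+E2 rats and 13.9 to 755.0 in OV rats. Of these 8 differences 7 were above 0 and 1 was below, with a median of +0.31, +0.82 without that rat and +0.68 with the authors' values. Among all 15000 named genes 8176 were above 0. Astrocyte markers had 0 of 10, and 2 lower without that rat and with the authors' values, with sums of 537.0 to 671.0 in OV+E2 rats and 538.2 to 667.4 in OV rats. Neuron markers had 1 of 14 higher, the glutamate transporter Slc17a7 at +0.30, and 2 higher without that rat and with the authors' values. OV replicate 3 had the top sum of both groups for choroid plexus, oligodendrocyte, endothelial and microglial markers. Their part in the candidate genes' levels was not tested.

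The genes whose levels were most like those of each candidate were looked for among 12775 named genes (12776 for Ephx2) over the 8 arrays other than OV replicate 3. For Zbtb16 at base 4390 they were Nr2f2, Rictor and Gli1, with a Pearson r of 0.975, 0.949 and 0.947. Over 9 arrays r was 0.640, 0.171 and 0.820. For Ephx2 they were Csf1r, Rrp15 and Fyb1, at 0.968, 0.954 and 0.948, of which Csf1r and Fyb1 are genes of microglia and other immune cells. Over 9 arrays r was 0.969, 0.606 and 0.356. For Ogn at base 2404 they were Ppfia2, Myzap and Slc6a13, at 0.958, 0.949 and 0.946 (0.564, 0.489 and 0.573 over 9 arrays), and Slc6a13 is a transporter of meninges and vessels. For Zbtb16 at base 7403 they were Mafa, Rab18 and Pigy, at 0.972, 0.967 and 0.966, and over 9 arrays at 0.318, 0.112 and 0.754. At base 1788 they were Itga4, Thoc6 and Eif4g3, at 0.970, 0.967 and 0.953, and over 9 arrays at 0.962, 0.907 and −0.0791. No gene was named for more than 1 of the 3 Zbtb16 probes. For Ogn at base 999 they were Myo15b, Ppfia2 and Usp35, at 0.955, 0.941 and 0.922 (0.301, 0.626 and 0.349 over 9 arrays), and Ppfia2 was thus shared by both Ogn probes. For Gstm1 at base 612 they were Ube2f, Tollip and Psph, at 0.959, 0.914 and 0.913, and over 9 arrays at 0.999, 0.985 and −0.260. At base 643 they were Sptan1, Derl2 and Paxip1, at 0.979, 0.979 and 0.971, and over 9 arrays at 0.399, 0.996 and 0.995. For Acsm3 they were Tatdn3, Tasor2 and Thbs3, at 0.973, 0.944 and 0.939, and over 9 arrays at 0.771, 0.887 and 0.474. For Endog they included Hspa12a and Tenm3, at 0.984 and 0.977, and over 9 arrays at −0.363 and 0.686. For Cd36 at base 2403 they were Cwf19l2, Ticam2 and Gstm2, at 0.954, 0.937 and 0.907, and over 9 arrays at 0.653, 0.701 and 0.783. With so many genes and 8 arrays that share group and slide, values this high describe these rats and carry no test.

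RefSeq promoter windows of 250 bases before to 50 after the start were at hand for 5 of the 7 genes, all but Zbtb16 and Ephx2. Searched on both strands, 0 of the 5 held the palindromic oestrogen response element, the glucocorticoid element core ACANNNTGT, the direct repeat of PPAR and RXR or the antioxidant element TGACNNNGC. Of 33469 rat windows, 0.0269%, 6.86%, 0.0538% and 12.1% held them in that order. The missing letters say nothing of binding elsewhere.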

How the data were processed

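Each array held 62976 spots of 1-colour Cy3 intensity, deposited by the authors as scanner files whose processed signal is background-subtracted. Feature Extraction is version 9.1 per the submitters' processing notes and 10.7.3.1 per the file headers, which also give build rn4. The authors' deposited value table is also an intensity on a linear scale, and its scaling is not stated.

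The 4259 control spots and 253 to 517 outlier spots per array were left out, spots of a probe were averaged, and log2 signal minus the 75th percentile of the array was used. Probes that 4 or more of the 9 arrays marked well above background were fitted with limma 3.58.1 in R 4.3.3 (group as the only term, adjusted over 30215 probes). A gene in a list is its brightest probe. The fit was tested on simulated data. The number of arrays limits the precision. The p-values measure the spread between rats, 1 per array.

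The members and lists were chosen with earlier results of these data known. All 13 probes of the 7 genes were reported, of each list the up to 3 genes of lowest p could be named, and likeness was limited to 3 genes per probe, of which 1 is not reported here. Alternatives covered background, scaling, filter, slide, array weights, the authors' values and each array left out. The combinations of slide with OV replicate 3 left out, or with the authors' values, were added after seeing the data.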

Additional observations from a re-analysis of the deposited data

Results flagged for a closer look

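Among 22 sets of a probe and a group, 3 held a rat farther from its neighbours than Dixon's limit allows, and chance gives about 1 in 20. For Gstm1 at base 612, OV replicate 3 had a level of 2.105, against 3.117 in the nearest OV rat. For Gstm1 at base 643, OV+E2 replicate 4 had 3.222, against 3.143 in the nearest OV+E2 rat. For Ephx2, OV+E2 replicate 1 had −2.013, against −2.317 in the nearest OV+E2 rat.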

How the results depend on the processing

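The number of probes passing adjustment was 0 and became 9 with no filter on dim probes, 1125 within slide 2, 3499 with array weights, 69 with the authors' values, 1 with the authors' values without OV replicate 3, 26 with the authors' values and slide as a block, and 1 without OV replicate 3 and with slide as a block. Leaving out each rat gave 0 to 1. Member probes past an unadjusted p of 0.05 were 1, and 2 with normexp, with slide as a block, with the authors' values with or without OV replicate 3, and under both combinations added after seeing the data. Each of these counts of 2 was Zbtb16 at bases 4390 and 7403. Within slide 2, which holds 1 OV rat, Zbtb16 at base 7403 was at +0.44 and Ogn at base 999 at −0.29. The count was 0 with no filter or within slide 1 and 4 with array weights, and 0 to 2 with each rat left out. Both groups share the replicate numbers 1, 2, 3 and 5, but same-numbered arrays did not all deviate together (r of 0.170, −0.0760, −0.0109 and 0.105), so the numbers were not taken as pairs. With the replicate block 0 probes passed adjustment and 1 member probe had an unadjusted p under 0.05, Zbtb16 at base 4390 at +0.44. OV has no replicate 4, so OV+E2 replicate 4 did not enter that estimate. Leaving out this rat without a block also gave +0.44.

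The sign turned in these cases. Ephx2 was −0.20 with normexp, −0.25 within slide 2, −0.14 with the authors' values with or without OV replicate 3, −0.11 with those and slide as a block, and −0.12 without OV replicate 3 and with slide as a block. Acsm3 was −0.13 with normexp, −0.0035 with slide as a block, −0.22 within slide 2 and −0.031 with the authors' values and slide. Ogn at base 2404 was −0.0046 with quantile scaling, −0.047 with slide, −0.0057 with the replicate block, −0.23 within slide 2, −0.062 with array weights, −0.027 and −0.053 with the authors' values with and without OV replicate 3, −0.073 with those and slide, and −0.086 without OV replicate 3 and with slide. Ogn at base 999 was −0.046 with slide, −0.29 within slide 2, −0.070 with array weights, −0.045 and −0.075 with the authors' values with and without OV replicate 3, −0.10 with those and slide, and −0.11 without OV replicate 3 and with slide. Cd36 was +0.10 with median scaling, +0.092 with quantile scaling and +0.023 within slide 1, and Zbtb16 at base 1788 was +0.23 with array weights. Cd36 kept its sign but moved farther from 0 with normexp, to −0.23, and within slide 2, to −0.12. With each rat left out, Ephx2 ran from −0.14 to +0.51, Ogn from −0.054 to +0.087 at base 2404 and from −0.076 to +0.13 at base 999, Cd36 from −0.051 to +0.040 and Endog from −0.050 to +0.097. Zbtb16 ran from +0.28 to +0.44 at base 4390 and from +0.14 to +0.34 at base 7403, and Gstm1 stayed above 0 at both places. The median difference of all probes was +0.0011, and −0.11 with normexp, +0.11 with median scaling and −0.13 with no filter. The cause of these changes was not tested. Ephx2 had no value where detection on all 9 arrays was asked, since OV replicate 3 lacked it.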
